A study of Mus musculus with 11 samples.

Results

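The effect of the APP/PS1 genotype without any magnetic field was described across genes by setting 3 hippocampal libraries of sham-exposed APP/PS1 mice (sham 1, 3 and 4) against 4 wild-type (WT 1 to 4) libraries from C57BL/6J mice. All mice were 14 months old at the end. APP/PS1 mice carry transgenes that raise the output of amyloid-beta. From 2 months of age they were sham-exposed on 5 working days a week, for 3 h a day until 11 months and then for 6 h a day. The labels do not say which promoters drive the transgenes, whether WT mice were handled alongside, or whether each library is a separate animal, and the extraction protocol mentions pooled RNA. The p-values therefore measure the spread between libraries, which may be technical. The other 4 of the 11 libraries, from APP/PS1 mice in a rotating magnetic field, entered the shared estimate of the spread and the filter on genes. They are not compared here. Of 36826 genes in the deposited table, the 14428 that had an FPKM (read fragments scaled by transcript length and library depth) of at least 1 in at least 3 of the 11 libraries were tested.

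Amyloid precursor protein is cut in turn by beta-secretase and by gamma-secretase to release amyloid-beta. Mice of this model accumulate amyloid plaques in cortex and hippocampus as they age. Microglia and astrocytes gather around plaques, where microglia switch on genes of phagocytosis and lipid handling and astrocytes those of intermediate filaments.

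Each of the 7 libraries held between 68124548 and 70404016 counts, and between 26789 and 27283 genes had a count. Levels are given as CPM, a gene's count relative to all counts on tested genes after TMM scaling, and differences as log2 of sham over WT. The tissue is labelled hippocampus and the cell type neurons, but Gfap of astrocytes (92.1 to 968 CPM) and Mbp of oligodendrocytes (1401 to 4310 CPM) were present in every library, so the samples are described as whole tissue, in which fewer cells of a type and less RNA per cell cannot be told apart. All 7 libraries carried the Y-linked Ddx3y at 118 to 139 CPM, with Xist at no more than 1.09 CPM. WT 3 stood apart from its group: its median correlation with the other WT libraries across genes was 0.954, against 0.981 to 0.984 for WT 1, 2 and 4. List scores are the mean log2 deviation of a list's members from their mean over the 7 libraries. Those of WT 3 were low for markers of dentate granule cells (-1.77), CA1 (-1.49) and CA2 and CA3 (-1.40) and high for neocortical layers (0.844). Sham 4 had 9.53% of its counts on mitochondrial genes, against 5.76% to 7.39% in the other 6. Its score for neocortical layers was 0.425, against -0.333 in sham 1 and -0.332 in sham 3. The median log2 difference of the neocortical list was -0.126, which was 0.149 without WT 3 and -0.634 without sham 4. Many results that touch either library are given with and without it, but not all.

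With edgeR's quasi-likelihood test and Benjamini-Hochberg adjustment over all tested genes, 122 genes were higher in sham hippocampus at an adjusted p below 0.05, which is 0.846% of those tested, and 12 were lower (0.0832%). Without WT 3 the counts were 139 higher (0.963%) and 14 lower (0.097%), and 128 genes were called both ways. Of the genes called with WT 3 included, 6 lost the call without it, among them Sgk1, Bag3 and Map3k19. Another 25 passed only without it, among them Gfap, C4b, Msmo1 and Cd74. At an unadjusted p below 0.05 there were 965 genes higher and 942 lower. When the dispersion was estimated from the 7 sham and WT libraries alone, 67 genes were higher and 9 lower, and 75 of these 76 were also among the 134. Of the called genes named here, Hmgcs1, Plin2, Mlxipl, Abca9, H2-K1, B2m, Vsir, Selplg, Itgb2, Ptpn6, Ctss, Ctsz, Hexa, Slc30a3, Ift27, Gm6749, Calr, Bag3, Sgk1, Map3k19 and Alb lost the call in that fit, at adjusted p values from 0.0504 (Vsir) to 0.266 (Calr). All 3 sham libraries lay above all 4 WT libraries for 962 genes (6.67%) and below them for 865 (6.0%). Over all tested genes the median log2 difference was -0.002.

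Genes typical of other organs stood beside brain genes among those that rose. Of the 122, 27 were on the lists of liver, intestine, kidney and lung genes and 17 on immune lists, 15 were on other lists and 63 on none. In 54 of the 122 the WT mean was below 1 CPM. The other 68 had a median log2 difference of 1.04, and 28 of them stood at 10 CPM or more in WT. Genes that reached the filter through the APP/PS1 libraries alone had to be higher, and those that reached it through WT alone lower. More of the 11 libraries are APP/PS1 than WT, so 122 against 12 does not measure a balance of directions. With a filter on a mean FPKM of at least 1 instead, 99 genes were called in both directions together. Of the 12 that fell, 9 were skeletal muscle genes, and the others were Slc30a3, Ift27 and the pseudogene Gm6749. Leaving out any 1 of the 7 libraries kept 79 of the 122 and 7 of the 12.

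**Figure D1:**
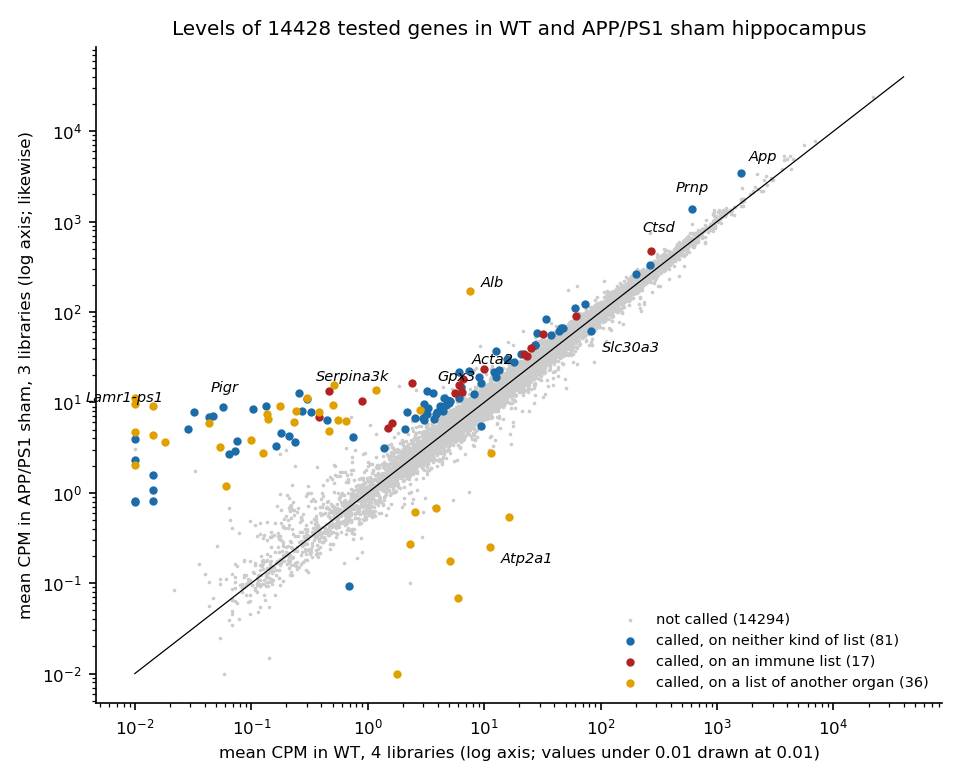
Mean CPM of each of 14428 tested genes in WT (x axis, 4 libraries) and APP/PS1 sham hippocampus (y axis, 3 libraries), both on log axes, with values under 0.01 drawn at 0.01 and the diagonal marking equal levels. Red points mark the 17 called genes on immune lists, orange the 36 on lists of other organs and blue the other 81 called genes; many orange points lie at the left, where WT levels are near 0, while App and Prnp sit above the diagonal at high levels.

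App transcripts were higher in every sham library. App, the precursor of amyloid-beta, was at 1558, 1602, 1633 and 1577 CPM in WT 1 to 4 and at 2960, 3621 and 3669 CPM in sham 1, 3 and 4. The groups did not overlap, and the difference was 2.15-fold (log2 1.10, SE 0.0871, adjusted p = 0.000116). The table gives App 1 value and does not separate transgene from endogenous transcripts. Prnp, the prion protein gene, was at 646, 614, 532 and 661 CPM in WT and 1447, 1490 and 1208 CPM in sham. Its rise of 2.25-fold (adjusted p = 0.000127) was as large as that of App. The pseudogene Lamr1-ps1, which the table places on chromosome 2 at 131746006 to 131746879, next to Prnp at 131751848 to 131780349, went from at most 0.101 CPM in the WT libraries to 7.69, 8.84 and 6.78 CPM in sham (adjusted p = 5.99e-05). The mean FPKM of Lamr1-ps1 was 0.032 in WT and 8.34 in sham, so it reached the filter through the APP/PS1 libraries and had to differ. The part of transgene-derived reads in Prnp and Lamr1-ps1 was not tested.

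The enzymes that act on App showed no call. Of 9 tested genes of the secretases and their complexes 0 passed, with a median log2 difference of 0.065, and of 11 genes of amyloid binding and clearance 0 passed, with a median of 0.218. Bace1, the beta-secretase, differed by log2 0.07 (adjusted p = 0.736). Adam17, an alpha-secretase, was at 17.6, 15, 16 and 16.5 CPM in WT and 21.3, 21.3 and 18.5 CPM in sham. Every sham library was above every WT library, yet the adjusted p was 0.202. Ide, the insulin-degrading enzyme that also cleaves amyloid-beta, had an adjusted p of 0.196, and Clu, which encodes the chaperone clusterin, one of 0.300 (log2 0.29).

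Cholesterol synthesis genes were slightly higher as a group in sham hippocampus. Of 23 tested genes of sterol synthesis, uptake and control, 2 rose, against 0.846% of all tested genes. In 20 the log2 difference was above 0, and the median was 0.258, beside -0.002 over all tested genes. In 11 of the 23 every sham library was above every WT library, against 6.67% of all genes. Without WT 3, 5 of the 23 rose, against 0.963% of all tested genes, and the median was 0.335. Hmgcs1, which makes HMG-CoA at the head of the pathway, was at 199, 187, 221 and 197 CPM in WT and 265, 256 and 272 CPM in sham. Sqle, the squalene epoxidase, was at 44.6, 48.8, 48.3 and 46.9 CPM in WT and 68.7, 64.7 and 67.6 CPM in sham. For each of the pair the sham libraries were all above the WT libraries. The fold was 1.31 for Hmgcs1 (log2 0.39, SE 0.0725, adjusted p = 0.0258) and 1.42 for Sqle (log2 0.51, SE 0.0930, adjusted p = 0.0252). Both calls ended when any 1 library other than WT 3 was left out, with an adjusted p of up to 0.107 and 0.0908.

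Further steps of the pathway passed only without WT 3. Stard4, a sterol carrier between membranes, was at 20.7, 20.8, 29.7 and 20.7 CPM in WT and 29.8, 32.6 and 34.8 CPM in sham. WT 3 alone came close to the sham range, and the adjusted p was 0.226 with WT 3 and 0.0316 without. For Msmo1, a sterol demethylase, the values were 57.9, 50.0, 58.1 and 49.8 CPM in WT and 71.5, 66.0 and 69.0 CPM in sham. The groups did not overlap, and the adjusted p was 0.0628 with WT 3 and 0.0273 without. Srebf2, the transcription factor that drives this pathway, did not pass (log2 0.11, adjusted p = 0.442).

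The 250 bases before the start of these genes, taken from RefSeq on GRCm38.p6, were searched because their members moved together. Of 16 cholesterol genes matched in the table, 15 held a CCAAT box before at least 1 of their listed starts, counted as CCAAT or its complement ATTGG, which is 93.8%, against 40.5% of 10114 tested genes matched and 37.5% of 27025 genes in all. The matched cholesterol genes had 1.19 listed starts on average and the matched tested genes 1.29. The sterol element TCACNCCAC, on either strand, was in 1 of the 16 (Hmgcs1), against 1.3% of tested genes and 1.22% of all. The matches in Hmgcs1 do not overlap. The search was chosen after the values had been seen, and a match of letters is a description of these windows. The promoters of Hmgcs1, which holds both motifs and rose with WT 3 included, and Msmo1, which holds the box alone and rose without WT 3, are shown 5′ to 3′ with motif letters in capitals. In Hmgcs1 the sterol element begins 137 bases before the start. Hmgcs1 lies at chr13:119690101-119690350 on the plus strand and Msmo1 at chr8:64733579-64733828 on the minus strand.
Hmgcs1: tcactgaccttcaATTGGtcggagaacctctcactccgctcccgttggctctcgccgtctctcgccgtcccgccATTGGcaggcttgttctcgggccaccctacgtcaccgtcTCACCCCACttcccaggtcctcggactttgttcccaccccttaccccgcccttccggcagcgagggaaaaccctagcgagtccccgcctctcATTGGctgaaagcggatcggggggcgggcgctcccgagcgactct
Msmo1: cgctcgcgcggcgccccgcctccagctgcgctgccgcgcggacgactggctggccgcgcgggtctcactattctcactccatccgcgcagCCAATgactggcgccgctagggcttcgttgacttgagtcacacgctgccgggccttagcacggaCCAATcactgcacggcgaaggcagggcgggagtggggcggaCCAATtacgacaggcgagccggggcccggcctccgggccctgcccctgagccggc

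Of the called genes on no list, 4 are described here, chosen after their values were seen. Plin2, which coats lipid droplets, was at 4.78, 3.57, 3.40 and 3.74 CPM in WT and at 8.0, 6.94 and 7.34 CPM in sham (1.92-fold, SE 0.152 on the log2 scale, adjusted p = 0.0103). The groups were well apart, and the gene passed without any 1 library. Slco2b1, an organic anion carrier, rose 1.56-fold (adjusted p = 0.00468). Abca9, a transporter of the ABC family, rose 1.71-fold (adjusted p = 0.0252), and leaving out any of WT 2, WT 4, sham 1 and sham 3 ended its call (up to 0.147). Mlxipl, a glucose-responsive transcription factor of lipogenesis, rose 1.77-fold (adjusted p = 0.0248), a call that ended without WT 1, WT 4, sham 1 or sham 3 (up to 0.142). Of 14 fatty acid synthesis genes, all had a log2 difference above 0, with a median of 0.236 that was 0.152 without WT 3, and 0 passed. Without sham 4 the median was 0.155, and without both WT 3 and sham 4 it was 0.057, each with 12 of the 14 above 0. Acaca, Acsl4, Elovl6 and Me1 had every sham library above every WT library, at 1.21-fold to 1.26-fold.

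Reactive astrocyte genes were higher in sham, and WT 3 set how many passed. Of 11 tested members 2 rose, against 0.846% of all tested genes, and 10 were above 0, with a median log2 difference of 0.764. Without WT 3, 4 rose, against 0.963% of all tested genes, and the median was 1.0. Gfap, the astrocyte intermediate filament, was at 357, 298, 92.1 and 319 CPM in WT and at 640, 968 and 661 CPM in sham. WT 3 was the lowest library, and no WT library reached the sham range. The adjusted p for Gfap was 0.0821 at 2.84-fold, and 0.000961 at 2.33-fold without WT 3. C4b, a complement component that astrocytes make, was at 93.3, 64.3, 21.3 and 71.7 CPM in WT and 144, 245 and 194 CPM in sham (adjusted p = 0.0744; without WT 3 2.54-fold, adjusted p = 0.00352).

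Osmr, the receptor of oncostatin M, passed in every fit that left out 1 library. It was at 7.01, 6.11, 5.78 and 6.61 CPM in WT and at 10.8, 15.1 and 18.4 CPM in sham, 2.32-fold higher (log2 1.21, SE 0.180, adjusted p = 0.00554). Its mean FPKM was 0.506 in WT and 1.14 in sham, so it passed the filter through the APP/PS1 libraries and had to differ. Vim, a second intermediate filament, was at 28.4, 26.1, 27.8 and 27.6 CPM in WT and 42, 47.4 and 39.5 CPM in sham, 1.56-fold higher (adjusted p = 0.0179). Its groups did not overlap, but the call ended without WT 2, WT 4, sham 1 or sham 3 (up to 0.115). Serpina3n, a secreted protease inhibitor, was at 8.80 CPM in WT 3, 49.6 to 55.0 CPM in the other WT libraries and 64.9 to 80.0 CPM in sham (adjusted p = 0.454, and 0.173 without WT 3). Homeostatic astrocyte genes, such as those of glutamate uptake and water transport, had 0 of 17 called and a median of 0.120.

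**Figure D2:**
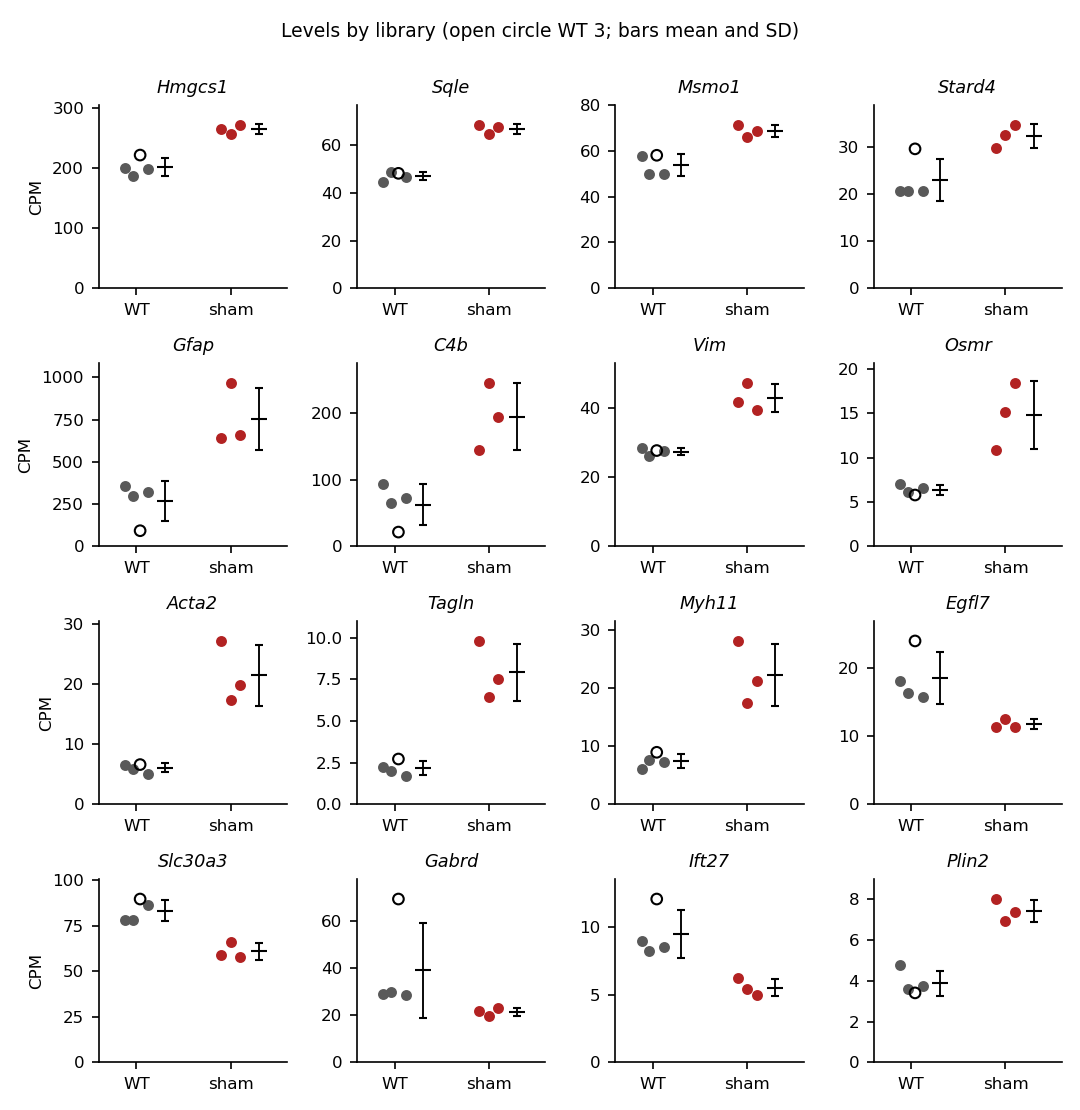
CPM of 16 genes in each library (y axes, from 0) for WT (grey, WT 3 as an open circle) and APP/PS1 sham (red), with bars for the group mean and SD. WT 3 lies apart from the other WT libraries for Stard4, Gfap, C4b and Gabrd, whereas the sham libraries lie wholly above WT for Sqle, Vim, Osmr, Acta2, Tagln, Myh11 and Plin2.

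Microglial genes typical of plaques were higher in sham, with a median log2 difference of 0.758 (0.792 without WT 3). Homeostatic microglial genes leaned the same way, with 13 of 14 above 0 and a median of 0.461 (0.39 without WT 3). For 8 of the 14 every sham library was above every WT library, against 6.67% of all tested genes. Of 22 plaque-associated microglial genes 10 rose, of 14 homeostatic microglial genes 1 (Selplg), and of 11 complement genes 4 (C3, C3ar1, C1qa and Itgb2), against 0.846% of all tested genes. Members that passed the filter through the APP/PS1 libraries alone had to be higher. Among them were Itgax (mean FPKM 0.0743 in WT and 1.35 in sham) and C3 (0.448 and 2.96), so 10 and 4 do not measure their lists. Trem2, a lipid-sensing receptor of microglia, was at 9.68, 11.7, 8.19 and 10.5 CPM in WT and 20.8, 30.8 and 19.5 CPM in sham (2.36-fold, adjusted p = 0.00333). Its groups lay well apart. Among immune genes on no list, Csf3r, the receptor of granulocyte colony-stimulating factor, was at 8.97, 9.37, 8.96 and 8.88 CPM in WT and 16.5, 22.6 and 17.6 CPM in sham (2.09-fold, SE 0.117 on the log2 scale, adjusted p = 0.000769). Lag3, an inhibitory receptor, was at 4.28, 5.03, 5.35 and 4.60 CPM in WT and 9.04, 13.2 and 10.1 CPM in sham (2.23-fold, adjusted p = 0.00698). Both genes passed without any 1 library. Mpeg1, a pore-forming protein of phagocytes, rose 2.46-fold (adjusted p = 0.000147), and Vsir, another inhibitory receptor, 1.68-fold (adjusted p = 0.00554).

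Genes of antigen presentation were all above 0 in log2 difference (9 of 9, median 0.657, and 0.688 without WT 3), with 2 called, and 5 without WT 3. Over all tested genes 0.846% rose, and 0.963% without WT 3. H2-K1, a class I heavy chain, was at 18.8, 21.1, 24.2 and 23.1 CPM in WT and 36.8, 35.5 and 30.9 CPM in sham (1.58-fold, adjusted p = 0.0113, lost without sham 1 or sham 3, at up to 0.0680). B2m, the light chain of class I, was at 60.1, 54.1, 74.4 and 55.1 CPM in WT and 85.0, 95.6 and 92.2 CPM in sham. It rose 1.49-fold at an adjusted p of 0.0466, which was 0.00252 without WT 3 and up to 0.190 without any of the other 6. Cd74, the class II invariant chain, was at 3.44, 4.14, 8.29 and 2.29 CPM in WT and 7.07, 7.42 and 9.11 CPM in sham. WT 3 overlapped the sham range, and the adjusted p was 0.358 with it and 0.0216 without it. The class I H2 genes resemble one another in sequence, so how the counting divided their reads is uncertain. Interferon response genes had 0 of 11 called (median 0.281). Of 16 lymphocyte markers, 3 were tested and 0 called.

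Of 12 tested smooth muscle and pericyte genes 3 rose, against 0.846% of all tested genes. These were Acta2, Tagln and Myh11, which belong to the contractile apparatus of smooth muscle. Acta2, smooth muscle actin, was at 6.62, 5.94, 6.62 and 5.06 CPM in WT and at 27.2, 17.4 and 19.8 CPM in sham (3.54-fold, log2 1.82, SE 0.172, adjusted p = 0.000267). Tagln, an actin-binding protein, was at 2.25, 2.02, 2.72 and 1.72 CPM in WT and 9.80, 6.42 and 7.52 CPM in sham (3.63-fold, adjusted p = 0.000904). Myh11, the smooth muscle myosin heavy chain, was at 6.05, 7.64, 8.96 and 7.26 CPM in WT and 28.1, 17.4 and 21.2 CPM in sham (2.98-fold, adjusted p = 0.000492). The groups did not overlap for any of the 3, and each passed without any 1 library. The mean FPKM of Myh11 was 0.949 in WT and 2.75 in sham, so it reached the filter mainly through the APP/PS1 libraries. Cnn1, another contractile gene, was below the filter, at 0.0871 to 0.598 CPM in WT and 2.33 to 3.09 CPM in sham.

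Other genes of these lists did not pass with all 7 libraries. Myl9, a myosin light chain, had an adjusted p of 0.111, Mylk, its kinase, 0.151, and Rgs5, a pericyte marker, 0.345. Des, a muscle filament gene, overlapped between groups. The list median was 0.244, and 0.347 without WT 3. Actg2, an actin of visceral smooth muscle below the filter, was at 0.128 CPM in WT 3 and 0 in the other WT libraries, and at 0.969, 1.26 and 1.24 CPM in sham. The smooth muscle genes that rose moved together with the genes of other organs described below, and the part of that RNA in their rise was not tested. Endothelial genes had a median of 0.043 over 17 tested, with 0 called. Egfl7, a protein secreted by endothelium, was at 18.1, 16.3, 23.9 and 15.7 CPM in WT and 11.3, 12.6 and 11.3 CPM in sham (0.635-fold, adjusted p = 0.0646). It fell without WT 3, at 0.703-fold and an adjusted p of 0.0409.

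Few neuronal genes passed the test. Of 22 presynaptic genes, 1 fell and 0 rose, against 0.0832% and 0.846% of all tested genes. Slc30a3, which loads zinc into glutamatergic synaptic vesicles, was at 78.4, 78.3, 89.7 and 86.3 CPM in WT and 58.7, 66.3 and 58.0 CPM in sham. Every sham library was below every WT library, at 0.734-fold (log2 -0.45, SE 0.0861, adjusted p = 0.0336). The call was kept without WT 3 (adjusted p = 0.0473) and ended without any other library (up to 0.143). Gabrd, the delta subunit of extrasynaptic GABA-A receptors, was at 29.2, 29.8, 69.5 and 28.6 CPM in WT and 22, 19.7 and 23.1 CPM in sham. WT 3 held more than the other WT libraries, and the adjusted p was 0.247 with it (0.550-fold) and 0.0359 without it (0.740-fold). Ift27, an intraflagellar transport protein of primary cilia, was at 8.99, 8.26, 12.1 and 8.55 CPM in WT and 6.22, 5.41 and 4.97 CPM in sham (0.584-fold, adjusted p = 0.0437), and its call ended without any library other than WT 3 (up to 0.181).

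The medians of several neuronal lists moved towards 0 without WT 3. Immediate early genes had a median log2 difference of -0.626 with WT 3 and -0.019 without it. Fos, an immediate early transcription factor, was at 24.6, 27.9, 172 and 26.9 CPM in WT and 31.4, 19.4 and 28.3 CPM in sham, so the groups overlapped except for WT 3. Stx1a, a syntaxin of the vesicle fusion machinery, was at 303 CPM in WT 3, 84.6 to 98.9 CPM in the other WT libraries and 75.1 to 79.8 CPM in sham (adjusted p = 0.366). For subfield markers the median was 0.124 for dentate granule cells, -0.006 for CA1 and 0.315 for CA2 and CA3, and -0.067, -0.079 and 0.056 without WT 3. Neuropeptide genes had 15 of 19 below 0 with a median of -0.318, and -0.060 without WT 3. Npy, neuropeptide Y, was at 19.8, 18.9, 37.2 and 20 CPM in WT and 12.6, 14.2 and 15.3 CPM in sham (adjusted p = 0.226, and 0.227 without WT 3). Rims1, a scaffold of the active zone, was at 209 to 219 CPM in WT and 254 to 280 CPM in sham (1.26-fold, adjusted p = 0.0821). Medians of the presynaptic, glutamate receptor and postsynaptic lists lay between -0.003 and 0.131, and between -0.030 and 0.092 without WT 3.

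**Figure D3:**
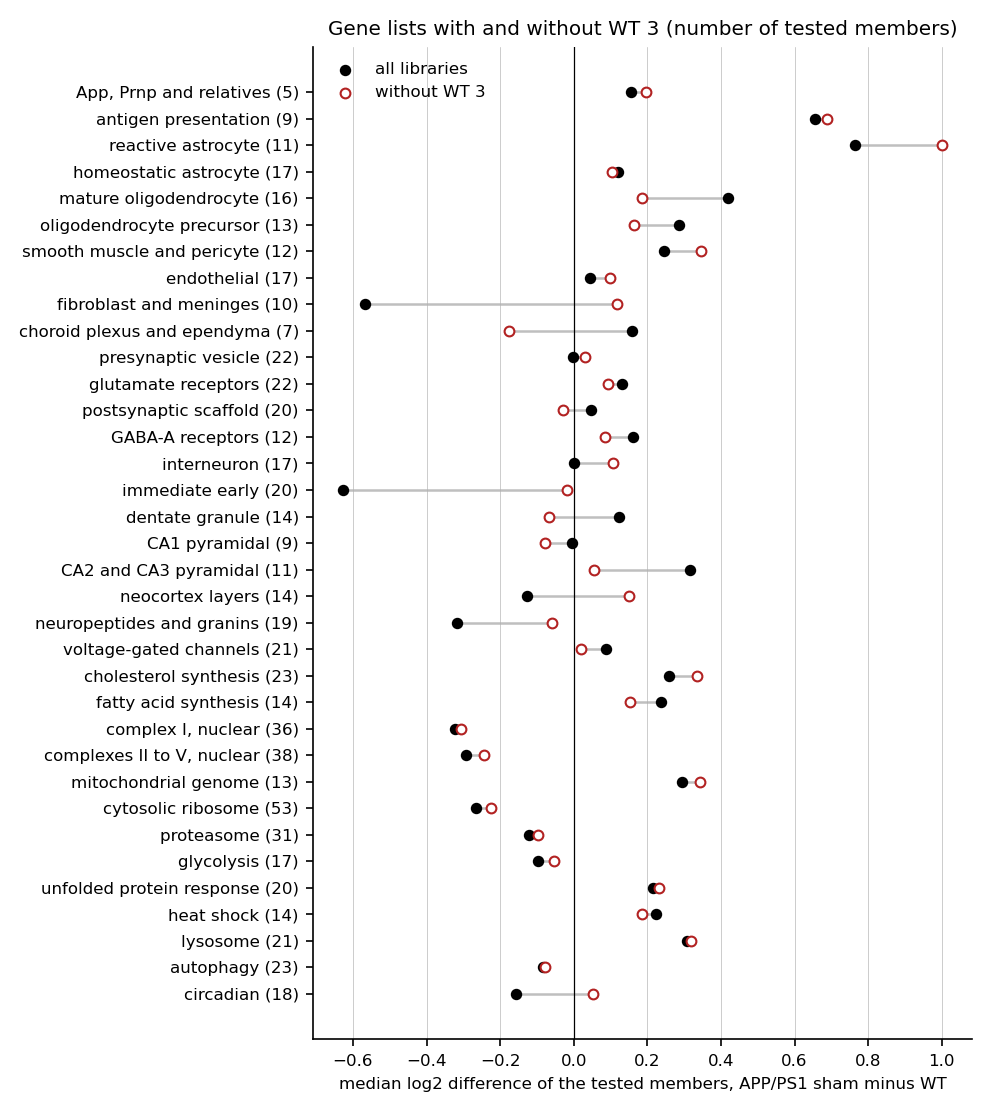
Median log2 difference of sham over WT for each gene list (x axis; lists as rows) with all 7 libraries and without WT 3. The fatty acid, cholesterol, lysosome and antigen presentation lists keep their side of 0 without WT 3, while immediate early genes move from -0.626 to -0.019 and fibroblast genes from -0.567 to 0.117.

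Oligodendrocyte genes were shifted upward without a call, and the shift was smaller without WT 3 or without sham 4 and turned without both. All 16 markers of mature oligodendrocytes had a log2 difference above 0, with a median of 0.419, which was 0.185 without WT 3 and 0.069 without sham 4. Without both it was -0.139, with 3 members above 0 and 13 below. The score of these markers was 0.620, 0.096, -1.01 and -0.444 in WT 1 to 4 and -0.402, 0.380 and 0.755 in sham 1, 3 and 4, so the groups overlapped. The 13 precursor markers had a median of 0.285, which was 0.163 without WT 3, 0.149 without sham 4 and 0.054 without both.

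Genes of oxidative phosphorylation and the ribosome were lower as groups, without a single call. Of 36 nuclear genes of complex I, the NADH dehydrogenase, 35 were below 0, with a median log2 difference of -0.324. All 38 genes of complexes II to V were below 0 (median -0.293), as were 51 of 53 cytosolic ribosomal protein genes (median -0.265). All sham libraries were below all WT libraries for 14 complex I, 15 complex II to V and 13 ribosomal genes, against 6.0% of all tested genes. Without WT 3 the medians were -0.307, -0.243 and -0.226. Without sham 4 they were -0.216, -0.149 and -0.136, and without both -0.175, -0.106 and -0.088. Sham 4 scored lowest, at -0.376, -0.453 and -0.452. Ndufa2, a complex I subunit, was at 7.91, 4.95, 7.41 and 6.22 CPM in WT and 4.27, 3.71 and 3.62 CPM in sham (adjusted p = 0.0689). No library overlapped between the groups. The 13 genes of the mitochondrial genome had a median of 0.294, and -0.083 without sham 4. mt-Nd5, a subunit of complex I that it encodes, was at 8415 CPM in sham 4 and 3294 to 4336 CPM in the other 6.

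Transcript length moved with these lists. Relative to the median length of all tested genes, derived from counts and FPKM, the median was 0.377 for complex I, 0.460 for complexes II to V and 0.493 for ribosomal genes, against 1.09 for cholesterol genes. Across the tested genes the Spearman correlation of the log2 difference with length was 0.236, and 0.153 without sham 4. Its part in the lower levels was not tested.

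**Figure D4:**
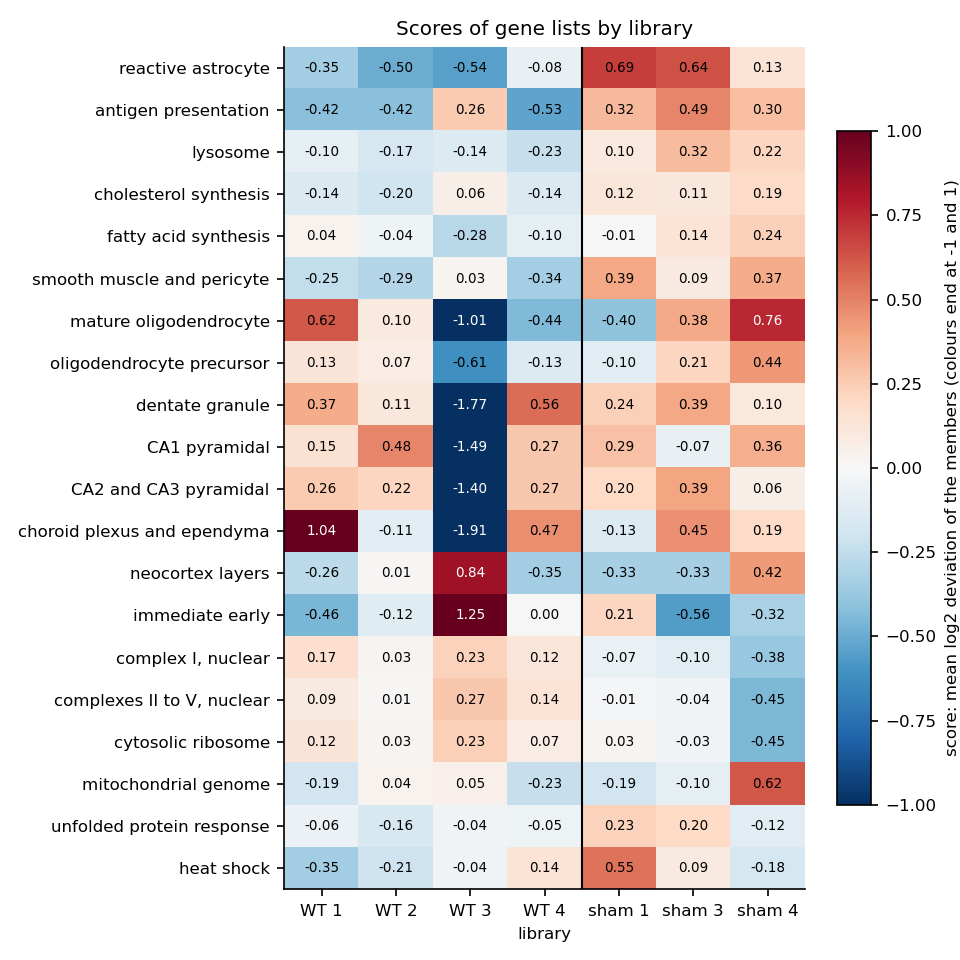
Score of selected gene lists (colour, the mean log2 deviation of the members from their mean over the 7 libraries) in each library (columns). WT 3 stands out for dentate, CA1, CA2 and CA3, neocortical and immediate early genes, and sham 4 for oxidative phosphorylation, ribosomal and mitochondrial genome genes.

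Genes of protein folding in the endoplasmic reticulum leaned upward. Of 20 tested genes of the unfolded protein response, 1 rose, against 0.846% of all tested genes, and 18 were above 0. The median was 0.216, and 0.293 without sham 4. Calr, the calcium-binding chaperone calreticulin, was at 286, 266, 263 and 257 CPM in WT and 325, 333 and 335 CPM in sham (1.23-fold, SE 0.0594 on the log2 scale, adjusted p = 0.0374). The groups did not overlap, but the call ended without WT 2, WT 4, sham 1, sham 3 or sham 4 (up to 0.162). Pdia3, a disulfide isomerase, had 165 to 175 CPM in WT and 201 to 218 CPM in sham, with an adjusted p of 0.0625, and 0.0448 without WT 3. Hspa5, the main chaperone of the compartment, was at 392 and 377 CPM in sham 1 and 3 but 217 CPM in sham 4 (adjusted p = 0.415). Bag3, a co-chaperone of the heat shock response, rose 1.52-fold (adjusted p = 0.0347), a call that ended without any 1 library (up to 0.119).

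The medians of the lysosome and autophagy lists lay on opposite sides of 0. Of 21 lysosomal genes 6 rose (Ctsd, Ctss, Ctsz, Hexa, Grn and Laptm5), against 0.846% of all tested genes. Their list had a median log2 difference of 0.309. Ctsd, the protease cathepsin D, was at 283, 261, 262 and 270 CPM in WT and 435, 583 and 414 CPM in sham (1.77-fold, adjusted p = 0.00256). The sham libraries were all above WT. Autophagy genes had 0 of 23 called, a median of -0.084 and 6 members for which all sham libraries were below WT, against 6.0% of all tested genes.

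Other single genes stood apart. Gpx3, a secreted glutathione peroxidase, was at 2.99, 2.67, 4.34 and 2.82 CPM in WT and 13.6, 13.9 and 12.7 CPM in sham (4.17-fold, log2 2.06, SE 0.242, adjusted p = 0.00123). Kap, a gene of the kidney list, moved in the same direction, from 0 to 0.0575 CPM in WT to 10.8, 8.28 and 8.20 CPM in sham, and the part of RNA from other organs in the rise of Gpx3 was not tested. Tent5c, a poly(A) polymerase, rose 3.11-fold (adjusted p = 0.000429). Its mean FPKM was 0.48 in WT and 1.47 in sham, so it passed the filter through the APP/PS1 libraries and had to differ. Sgk1, a kinase induced by glucocorticoids, was at 57.9, 51.6, 51.7 and 77.7 CPM in WT and 107, 119 and 110 CPM in sham. Sgk1 did not overlap between groups (1.87-fold, adjusted p = 0.0321), but the call held only without WT 4 when 1 library was left out (0.0526 without WT 3, up to 0.147).

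Genes of other organs differed between the groups by large folds. Of 20 liver genes 18 rose, while 9 of 12 tested skeletal muscle genes fell and 0 of 5 erythroid genes were called. Most listed intestinal, lung and kidney genes did not reach the filter: 8 of 17, 3 of 11 and 2 of 13 were tested, and 8, 5 and 4 had no count in any WT library. Members that reached it through the APP/PS1 libraries alone had to differ, liver genes included, so neither the 18 nor the 6, 2 and 1 called in the other lists measure those lists. Muscle genes such as Atp2a1 (mean FPKM 3.14 in WT and 0.066 in sham) and Tnnt3 (3.61 and 0.034) reached it through the WT libraries. They too had to differ, so the 9 does not measure that list. Alb, serum albumin, was at 4.11, 0.305, 14.5 and 11.4 CPM in WT and 219, 148 and 148 CPM in sham (22.6-fold, adjusted p = 0.0179, lost without WT 1, WT 4, sham 1 or sham 3, at up to 0.0675). The 19 liver genes other than Ttr, which the choroid plexus also makes, summed to 2.73 to 22.5 CPM in the WT libraries and 246 to 386 CPM in sham. Serpina3k, a liver serpin, was at 0.116 to 0.399 CPM in WT and at 19.5, 10.2 and 8.32 CPM in sham (48.6-fold, adjusted p = 5.99e-05). Pigr, the epithelial receptor that carries polymeric immunoglobulins, was at 0 to 0.171 CPM in WT and 8.95, 7.96 and 9.96 CPM in sham (adjusted p = 0.000177). Serpina3k (mean FPKM 0.12 in WT and 5.82 in sham) and Pigr (0.014 and 2.08) are on no list. They also reached the filter through the APP/PS1 libraries and had to differ. Lypd8, an intestinal surface protein, had 0 counts in all WT libraries and 10.8, 10.7 and 12.3 CPM in sham, at least 1041-fold higher against 3 counts over the WT group. Atp2a1, the calcium pump of fast skeletal muscle, was at 8.91, 12.5, 13.3 and 10.5 CPM in WT and 0.231, 0.275 and 0.252 CPM in sham (adjusted p = 2.85e-05). The groups did not overlap for any of these genes. Members of the Mup and Serpina1 families are near-identical copies, so values of single members are uncertain.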

How the data were processed

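Hippocampal poly(A) RNA was sequenced as paired reads trimmed with Cutadapt 1.9, per the labels' protocols. Per the submitters' processing notes, HISAT2 2.0.4, StringTie 1.3.4d and edgeR were used, with a human build. The genes are mouse genes, with build, counting tool and strandedness not given in the sources used here. In the table that the authors deposited, each gene has raw whole-number counts and an FPKM value per library. A count and an FPKM column named for a further sham library, 2 columns in all, matched no sample and were not used. Counts of genes with FPKM of at least 1 in 3 of 11 libraries were fitted with edgeR 4.0.16 (R 4.3.3; TMM; quasi-likelihood test; 3 groups; no covariate), and the script was tested on simulated data. SE values derive from the F statistic. No pair of replicate libraries agreed within counting noise (chi-square per degree of freedom 38.9 to 302). Alternatives used limma 3.58.1, DESeq2 1.42.0 and Python 3.11.15.

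Genes and lists were chosen with earlier results of these data known. The rule took App and Prnp, the called genes of smallest p in each direction and list, those whose call WT 3 decided, those of highest level and called neighbours within 1 Mb. Members of a list that the rule did not take, such as Bace1, Stard4, Msmo1, Trem2, Rims1 and Hspa5, and some called genes on no list, such as Plin2 and Mlxipl, were chosen after their values were seen. A few genes that the rule or the lists hold are not reported here.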

Additional observations from a re-analysis of the deposited data

Results flagged for a closer look

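In 15 of 135 groups of 4 WT libraries examined (84 genes and 51 list scores), 1 library lay farther from the others than Dixon's 95% critical value for the gap relative to the range allows. Chance flags about 1 in 20 groups. The genes include some chosen because WT 3 decided their call, so the number of flags in WT 3 is no test of that library. WT 3 was highest for Fos (172 CPM), Gabrd (69.5 CPM), H2-Ab1 (3.65 CPM), Npy (37.2 CPM), Stard4 (29.7 CPM) and Stx1a (303 CPM). It was lowest for Bag3 (7.19 CPM) and Serpina3n (8.80 CPM). Among list scores, in log2 units, WT 3 was highest for antigen presentation (0.259), endothelial (0.263) and fibroblast or meningeal genes (0.972), and lowest for CA1 (-1.49) and CA2 and CA3 markers (-1.40). The 2 other flags were Muc13, highest in WT 4 at 0.115 CPM with 0 in the other WT libraries, and Ptpn6, highest in WT 2 at 5.23 CPM.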

How the results depend on the processing

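The count of 122 higher genes was 67 when sham and WT libraries alone were fitted, 79 in that fit without WT 3 (chosen after seeing the data), 290 with no filter beyond 1 count, 339 with an FPKM minimum of 0.1, 251 with DESeq2 and 213 with voom library weights. It lay between 82 and 139 when 1 library was left out. With a replicate block it was 79. Replicate numbers did not pair the libraries, since deviations of same-numbered libraries correlated at -0.12, -0.174 and -0.225. The count of 12 lower genes was 24 with FPKM 0.1, 4 with a mean FPKM of 1, 94 with DESeq2, 39 with voom weights, 37 at an adjusted p of 0.1 and 3 without genes of other organs (chosen after seeing the data). It lay between 7 and 15 with 1 library left out, the lowest without sham 3. The causes were not tested. All 134 calls were kept with RLE scaling, TMM without mitochondrial and other-organ genes, DESeq2 and voom weights. Median SE was 0.454 below 1 CPM and 0.098 from 100 CPM, so differences of weakly expressed genes are the least precise.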
